A study of Mus musculus with 8 samples.

Results

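Mucins are very large glycoproteins that give mucus its gel structure or coat the surface of epithelial cells. In the conducting airways, secretory cells store the gel-forming mucins as dehydrated granules, release them onto the surface, and cilia move the resulting layer outward. Trefoil peptides are small proteins secreted together with mucins, AGR2 is a disulfide isomerase of the endoplasmic reticulum that is needed for mucin assembly, and SPDEF and FOXA3 are transcription factors that drive the mucous differentiation of airway cells. The 10 genes described here are the gel-forming mucins Muc5b and Muc5ac, the trefoil peptide gene Tff2, the membrane-bound mucins Muc1, Muc4, Muc16 and Muc20, the folding factor Agr2 and the regulators Spdef and Foxa3. They were chosen by symbol, with earlier results of these data known, from the 19937 genes represented by a probe set with exactly 1 gene symbol. All 10 were found, each with 1 probe set. No member was removed by a filter on low values.

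RNA of untreated mouse lung at postnatal day 21 was measured on 8 Affymetrix arrays. The labels give 4 beta-catenin stabilized and 4 beta-catenin knockout samples, numbered as biological replicates 1 to 4 in each group and all recorded as male, and do not say whether a sample was 1 animal or how much of the lung it held. Beta-catenin (Ctnnb1) carries canonical Wnt signals into the nucleus and also links cadherins to the actin cytoskeleton. The labels name no Cre driver, no altered exons and no targeted cell type, and unmodified lungs were not analysed here, so a difference cannot be assigned to one of the groups. Values are log2 expression from robust multi-array averaging (RMA), and differences are stabilized minus knockout from a limma model over all genes. Calls required an adjusted p (Benjamini-Hochberg, over all genes) under 0.05, a rule under which 1917 of all genes (9.62%) were called, 989 (4.96%) lower and 928 (4.65%) higher in stabilized lungs. Without stabilized replicate 1 the number of higher genes was 503, and without knockout replicate 3 it was 519.

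The arrays showed lung tissue, with the alveolar markers Sftpc and Ager and the airway marker Scgb1a1 among bright probe sets, and Nkx2-1 at 8.96 ± 0.06 in stabilized lungs and 8.87 ± 0.07 in knockout lungs (SD, n = 4 each). The Ctnnb1 probe set differed by 0.09 ± 0.06 (SE, limma adjusted p = 0.42) and does not check the genotype labels, because the altered exons are unknown. Xist, which is transcribed in female cells, was at 10.36 to 10.59 in 2 stabilized and 2 knockout arrays and at 4.18 to 4.62 in the others, and Y-linked Kdm5d, Uty and Eif2s3y lay at 3.08 to 4.00 in the arrays with high Xist and at 6.71 to 8.35 in the others. The recorded sex therefore goes against these genes in 4 arrays, 2 in each group, and counts of called genes that moved with Xist as a covariate are given beside the main ones.

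**Figure D1:**
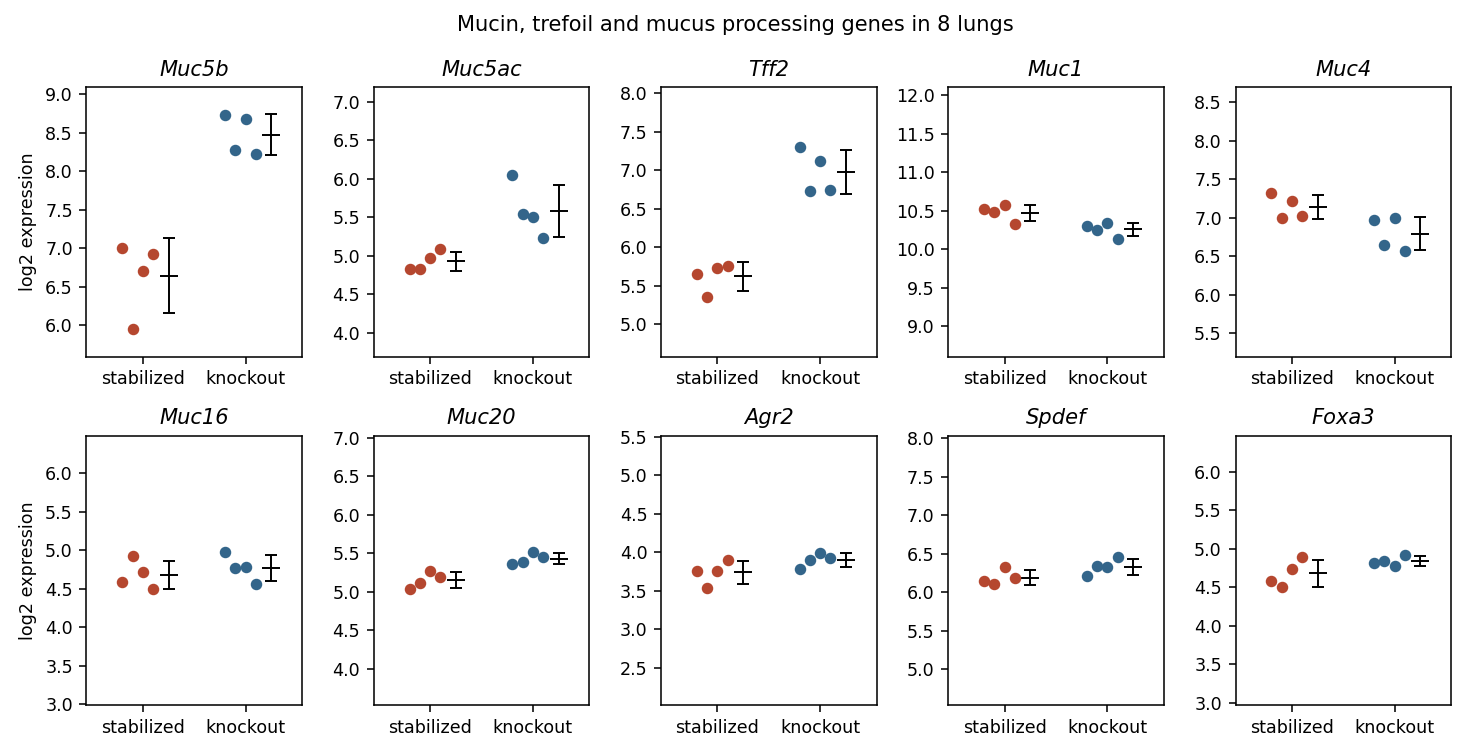
Log2 expression (y axis, the same span in each panel) of the 10 genes in each array, with stabilized lungs on the left in red and knockout lungs on the right in blue. Points are single arrays and bars beside them give the mean ± SD (n = 4 each). Muc5b, Tff2, Muc5ac and Muc20 were lower in every stabilized array than in any knockout array.

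Of the 10 genes, 4 were lower in stabilized lungs, 0 were higher and 6 did not pass the test. With Xist as a covariate 1 was higher, and over the 16 alternative fits the number higher reached at most 2. The share called lower among all genes was 4.96%. Because the members were chosen with earlier results of these data known, the count beside this share is a description and no test. The 4 were both gel-forming mucins, the trefoil peptide and 1 membrane-bound mucin. Their groups did not overlap in any of the 4, a pattern that 7.82% of all genes showed in the downward direction and 9.06% in the upward direction. The median difference over the 10 genes was -0.16, against -0.01 over all genes.

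Muc5b, the gel-forming mucin that mouse airways make at baseline, had the largest difference of the set. Its log2 level was 7.01, 5.95, 6.70 and 6.93 in stabilized replicates 1 to 4, against 8.74, 8.27, 8.68 and 8.23 in knockout replicates 1 to 4. The highest stabilized lung lay 1.22 log2 units below the lowest knockout lung, and stabilized replicate 2 was the lowest of all. Muc5b was 3.56-fold lower in stabilized lungs, a log2 difference of -1.83 ± 0.20 (SE, n = 4 per group, 95% interval -2.27 to -1.39, limma adjusted p = 0.000122). With stabilized replicate 2 left out the difference was -1.60, and over the 8 leave-one-out fits, each without 1 array, it ranged between -1.95 and -1.60. In these bulk samples, fewer cells that make a transcript and less transcript per cell cannot be told apart.

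Muc5ac, the gel-forming mucin that is scarce in resting mouse airways and induced by allergic stimuli, was also lower but by less. Its level was 4.83, 4.83, 4.97 and 5.09 in stabilized replicates 1 to 4, against 6.05, 5.54, 5.50 and 5.23 in knockout replicates 1 to 4. The groups were separated by 0.15 log2 units, knockout replicate 1 stood highest, and all 8 values lay below the median of their array. The difference was -0.65 ± 0.14 (SE, n = 4 per group, limma adjusted p = 0.0106), or 1.57-fold lower in stabilized lungs. Without knockout replicate 1 it was -0.50 (limma adjusted p = 0.00788), and when all probe sets were tested together the adjusted p was 0.0535.

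The signals of the 2 gel-forming mucins did not change by the same amount. The log2 ratio of Muc5b to Muc5ac averaged 1.72 ± 0.44 in stabilized lungs and 2.90 ± 0.23 in knockout lungs (SD, n = 4 each), a difference of -1.18 (two-sided exact permutation p = 0.0286, the smallest that 4 against 4 samples allow, and 0.0419 after Benjamini-Hochberg adjustment over 22 such ratios). These ratios show unequal change of signal within an array and set no level of one gene against the other. They were formed only for members already called lower, so their p-values are a description. Muc5ac lay below the array median in 8 of 8 arrays, where background can compress differences. Whether the transcripts changed unequally was not tested. Muc5ac and Muc5b are neighbours in the secreted mucin cluster of mouse chromosome 7, in the gene order of RefSeq on GRCm38.p6, where Muc6 and Muc2 precede them and Tollip follows. Muc6 differed by -0.10 ± 0.07 (SE, limma adjusted p = 0.44), Muc2 by -0.03 ± 0.09 (adjusted p = 0.87) and Tollip by 0.03 ± 0.06 (adjusted p = 0.82), so the called differences in this stretch were those of Muc5ac and Muc5b. Muc6 and Muc2 are gel-forming mucins of the stomach and the intestine. Both were dim, at means of 5.27 and 5.37 for Muc6 and 4.91 and 4.94 for Muc2 in stabilized and knockout lungs. Background can compress differences at such levels, so their missing calls say little.

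Tff2, a trefoil peptide best known from gastric mucous neck cells and secreted with mucins in the airway, was the other large decrease. It measured 5.65, 5.35, 5.73 and 5.75 in stabilized replicates 1 to 4, against 7.30, 6.73, 7.12 and 6.74 in knockout replicates 1 to 4. The groups were 0.98 log2 units apart at their nearest values. Tff2 was 2.55-fold lower in stabilized lungs, with a log2 difference of -1.35 ± 0.13 (SE, n = 4 per group, 95% interval -1.64 to -1.07, limma adjusted p = 4.45e-05). The other trefoil peptide genes, which flank Tff2 on chromosome 17, did not pass: Tff1 differed by -0.11 ± 0.07 (SE, adjusted p = 0.36, interval -0.26 to 0.04) and Tff3 by -0.03 ± 0.07 (SE, adjusted p = 0.80, interval -0.18 to 0.11). The signal of Muc5b changed more than that of Tff2, the log2 ratio of the pair being 0.48 lower in stabilized lungs (two-sided exact permutation p = 0.0286, adjusted p = 0.0419). Tff2 lay below the array median in 4 of 8 arrays, and Tff1 and Tff3 did so in every array. Background can compress differences at such levels, so the missing calls of Tff1 and Tff3 say little.

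Of the 4 membrane-bound mucins, Muc20 passed the test and Muc1, Muc4 and Muc16 did not. Muc20, a small mucin that binds the MET receptor in studies of human cells, measured 5.03, 5.11, 5.27 and 5.20 in stabilized replicates 1 to 4, against 5.36, 5.39, 5.52 and 5.45 in knockout replicates 1 to 4. These groups lay 0.09 log2 units apart at their nearest values, and all 8 values were below the median of their array. Muc20 was 1.21-fold lower at -0.28 ± 0.07 (SE, n = 4 per group, limma adjusted p = 0.027). This call was lost in 5 of the 8 leave-one-out fits, namely without stabilized replicate 1 (adjusted p = 0.0924), without stabilized replicate 2 (0.0594), and without knockout replicate 2 (0.0507), 3 (0.0865) or 4 (0.0599). A repeated quantile normalization (adjusted p = 0.0578) and a joint test of all probe sets (0.0672) also ended it.

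Muc4, a large mucin that forms a complex with the ERBB2 receptor, had values of 7.32, 6.99, 7.22 and 7.03 in stabilized replicates 1 to 4, against 6.96, 6.65, 6.99 and 6.56 in knockout replicates 1 to 4. The groups touched, with stabilized replicate 2 and knockout replicate 3 at the same level. Its difference of 0.35 ± 0.11 (SE, interval 0.11 to 0.59) had a limma adjusted p of 0.0666. Muc4 passed under 4 alternatives: with arrays centred on their medians (adjusted p = 0.0373), with a trended robust prior (0.0475), with Xist as a covariate (0.0389) and with the replicate number as a block (0.0127). Muc4 and Muc20 are neighbours on chromosome 16, and their annotated spans in RefSeq overlap on opposite strands.

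The promoters of this neighbouring pair are shown because the genes share a locus and 1 of them was called, each as 250 bases before the annotated start, on the gene's own strand (Muc4 plus, Muc20 minus), from RefSeq on GRCm38.p6. Capitals mark a match to any of 3 kinds of motif searched on both strands, namely TNTTTAC for FOX factors, CTTTGAT or CTTTGAA for TCF/LEF factors, and CCGGAT for SPDEF.
Muc20 promoter, chr16:32797436-32797685: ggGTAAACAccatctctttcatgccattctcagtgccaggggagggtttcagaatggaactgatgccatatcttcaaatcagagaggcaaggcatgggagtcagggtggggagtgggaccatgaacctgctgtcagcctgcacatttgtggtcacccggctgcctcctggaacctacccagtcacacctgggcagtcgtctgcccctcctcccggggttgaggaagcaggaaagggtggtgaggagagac
Muc4 promoter, chr16:32735636-32735885: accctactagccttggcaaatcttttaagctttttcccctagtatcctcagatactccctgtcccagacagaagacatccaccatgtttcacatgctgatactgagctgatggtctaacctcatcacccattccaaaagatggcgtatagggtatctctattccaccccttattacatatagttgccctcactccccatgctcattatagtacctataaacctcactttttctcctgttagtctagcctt
The Muc20 window held 1 FOX match, at its upstream end and in the reverse orientation, and the Muc4 window held 0 matches. RefSeq promoters were at hand for 7 of the 10 genes, the ones not matched being Muc5b, Muc5ac and Tff2. Among the 7, Muc20 and Spdef each held 1 FOX match, and 0 held a TCF/LEF or SPDEF match. Of 32851 mouse promoter windows of the same length, 10.9% held the FOX letters, 7.48% the TCF/LEF letters and 4.94% the SPDEF letters. A match describes the letters only.

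Muc1, a mucin of the apical surface of alveolar type 2 and airway cells, was measured at 10.51, 10.48, 10.57 and 10.32 in stabilized replicates 1 to 4, against 10.30, 10.25, 10.34 and 10.13 in knockout replicates 1 to 4. Only stabilized replicate 4 lay within the range of the knockout lungs. The difference of 0.22 ± 0.07 (SE, interval 0.06 to 0.38) did not pass (limma adjusted p = 0.0883). Without stabilized replicate 4 Muc1 passed at 0.27 (adjusted p = 0.0417), so 1 member was then higher, and it also passed after centring (0.0467) and with a trended robust prior (0.0436). Of 12 alveolar type 2 markers 7 rose and 1 fell, against 4.65% called higher and 4.96% lower among all genes. The list mean overlapped between the groups, at 11.20 to 11.36 in stabilized and 11.08 to 11.22 in knockout lungs. Sftpc differed by 0.03 ± 0.08 (SE, limma adjusted p = 0.83). Among the called markers Lamp3, a lamellar body protein, rose by 0.55 ± 0.07 and Sftpd, a surfactant collectin, by 0.46 ± 0.07 (SE). Hc, complement component C5, fell by 0.85 ± 0.08 (SE). The part of type 2 cells in the Muc1 values was not tested.

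Muc16, the very large mucin of mesothelium and airway surface, did not pass the test. It lay at 4.59, 4.92, 4.72 and 4.49 in stabilized replicates 1 to 4, against 4.98, 4.77, 4.78 and 4.56 in knockout replicates 1 to 4. The groups overlapped across most of their range, at -0.09 ± 0.10 (SE, interval -0.32 to 0.13, limma adjusted p = 0.63). All 8 values lay below the median of their array and 6 below its first quartile, where background compresses differences. Of 12 mesothelial markers 5 were higher and 0 lower, against 4.65% called higher and 4.96% lower among all genes. Upk1b, a uroplakin of mesothelial cells, rose by 0.98 ± 0.07, Msln (mesothelin, the binding partner of MUC16 in human cells) by 0.45 ± 0.07, and the membrane glycoprotein gene Gpm6a by 0.44 ± 0.10 (SE). Gpm6a kept its call in 7 of the 8 leave-one-out fits. The difference between Muc16 and these markers was not tested.

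**Figure D2:**
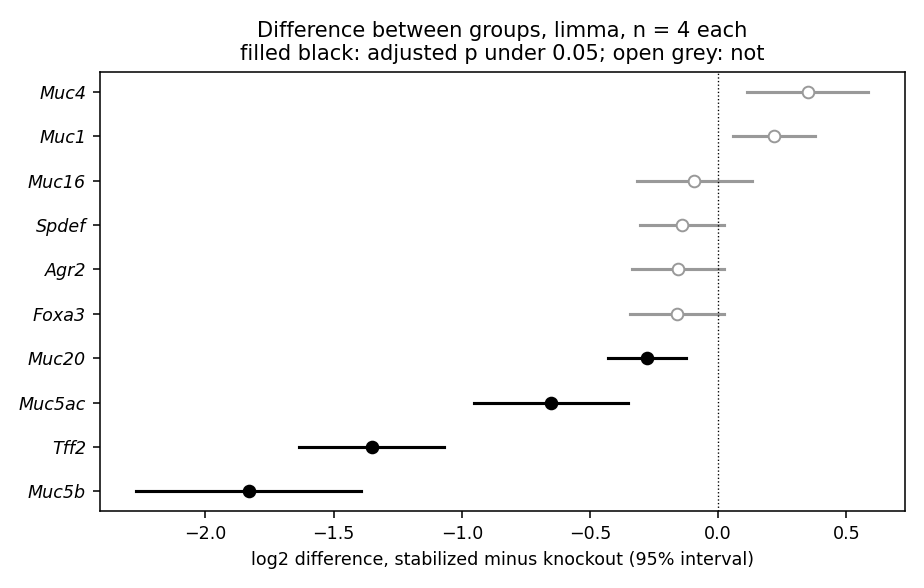
Log2 difference between stabilized and knockout lungs (x axis) for each of the 10 genes (y axis), with 95% intervals from limma (n = 4 arrays per group). Filled black points passed an adjusted p under 0.05. The 4 intervals of Muc5b, Tff2, Muc5ac and Muc20 lie below 0, and those of Muc4 and Muc1 lie above 0 without passing the adjusted threshold.

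The folding factor and the transcription factors of mucous differentiation did not pass the test. Agr2 lay at 3.76, 3.54, 3.76 and 3.90 in stabilized replicates 1 to 4, against 3.77, 3.90, 3.98 and 3.92 in knockout replicates 1 to 4. The groups overlapped and differed by -0.16 ± 0.08 (SE, limma adjusted p = 0.27). All 8 of these values fell between 3.08 and 4.00, the range read by Y-linked probe sets in arrays with high Xist. At that level the probe set had little room to show a decrease.

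Spdef, an ETS factor required for goblet cell differentiation in mouse airways, was at 6.14, 6.10, 6.33 and 6.19 in stabilized replicates 1 to 4, against 6.21, 6.34, 6.33 and 6.46 in knockout replicates 1 to 4. The groups overlapped, with a difference of -0.14 ± 0.07 (SE, interval -0.30 to 0.02, limma adjusted p = 0.27). In the signal of this probe set, the interval does not reach the decreases of Muc5b or Tff2. Spdef lay below the array median in 7 of 8 arrays, where background can compress differences, so the interval describes the signal only. Foxa3, a forkhead factor that induces mucous genes, was at 4.58, 4.51, 4.74 and 4.89 in stabilized replicates 1 to 4, against 4.82, 4.85, 4.78 and 4.93 in knockout replicates 1 to 4. It differed by -0.16 ± 0.08 (SE, interval -0.34 to 0.02, adjusted p = 0.26), and all 8 values lay below the first quartile of their array, where background compresses differences. Spdef was called in 0 of 16 alternative fits and Foxa3 in 0 of 15.

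For other mucins and mucin-like glycoproteins, 1 call was made. Among 15 measured genes 1 rose and 0 fell, while 14 missed the threshold, with a median difference of 0.10, against -0.01 over all genes. The shares over all genes were 4.65% called higher and 4.96% called lower. The member that rose was Cd34, a sialomucin of endothelial and progenitor cells, at 0.32 ± 0.06 (SE, limma adjusted p = 0.00458). The number that rose was 2 without knockout replicate 2 or knockout replicate 4, after centring, with a trended robust prior, without the dimmest genes and with the replicate block. The differences of the 15 ranged between -0.23 and 0.38.

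Among 23 measured genes of proteins secreted with mucus 3 fell and 0 rose, while 20 missed the threshold, with a median of -0.04. The share called lower was 4.96% among all genes. Pigr, the receptor that carries polymeric immunoglobulins across the epithelium, was 5.78 ± 0.47 in stabilized lungs and 7.12 ± 0.35 in knockout lungs (SD, n = 4 each), a fall of 1.34 ± 0.21 (SE, adjusted p = 0.00165). Ltf, the iron-binding antimicrobial protein lactoferrin, fell by 0.89 ± 0.15, and Gp2, a glycoprotein of mucosal surfaces, fell by 0.56 ± 0.11 (SE). All 3 kept their calls in each of the 8 leave-one-out fits. The number that rose was 2 after centring, with the replicate block and without stabilized replicate 2. It was 1 with Xist as a covariate, after repeated quantile normalization, with a trended robust prior, without the dimmest genes, and without knockout replicate 1 or knockout replicate 3.

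Clca1, a secreted metalloprotease of goblet cells that acts on the mucus network, varied widely between arrays. It was at 8.09, 5.26, 7.95 and 7.35 in stabilized replicates 1 to 4, against 10.30, 8.14, 8.23 and 8.65 in knockout replicates 1 to 4. Stabilized replicate 2, also lowest for Muc5b, was lowest, and knockout replicate 1, also highest for Muc5ac, was highest. The groups did not overlap, but the difference of -1.67 ± 0.58 (SE, interval -2.93 to -0.41) did not pass (limma adjusted p = 0.095). Without stabilized replicate 2 it was -1.04.

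Among 49 measured genes of enzymes that build O-linked sugar chains on mucins 4 rose and 3 fell, while 42 missed the threshold, with a median of 0.01. Among all genes 4.65% were called higher and 4.96% lower, and with Xist as a covariate 3 rose and 4 fell. B3gnt3, an N-acetylglucosaminyltransferase that extends core O-glycans, was 6.21 ± 0.21 in stabilized lungs and 7.29 ± 0.15 in knockout lungs (SD, n = 4 each), a fall of 1.08 ± 0.11 (SE, adjusted p = 4.49e-05). Chst4, a sulfotransferase acting on N-acetylglucosamine, fell by 0.55 ± 0.10 (SE, adjusted p = 0.00496). C1galt1c1, the chaperone of the core 1 galactosyltransferase, rose by 0.46 ± 0.07 (SE, adjusted p = 0.00203). The fucosyltransferase gene Fut4 rose by 0.44 ± 0.11 (SE), Galnt4, which starts O-glycan chains, by 0.30 ± 0.08 (SE) and the branching enzyme gene Gcnt1 by 0.37 ± 0.10 (SE), and these 3 kept their calls in 5, 3 and 3 of the 8 leave-one-out fits. The number that rose was 1 with all probe sets tested together, 1 without stabilized replicate 1, 1 without knockout replicate 3 and 2 without knockout replicate 2. Chst10 was the other member that fell and is not named by the rule for naming genes.

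Among 22 measured genes of protein folding and stress sensing in secretory cells 3 rose and 1 fell, while 18 missed the threshold, with a median of 0.09. Groups did not overlap, with stabilized lungs higher, for 8 of the 22. Among all genes 4.65% were called higher and 9.06% had such groups. The chaperone gene Hspa5 rose by 0.41 ± 0.07, the disulfide isomerase gene Pdia6 by 0.32 ± 0.07 and the stress-induced transcription factor gene Ddit3 by 0.23 ± 0.06 (SE), while the oxidase gene Ero1b fell by 0.31 ± 0.07 (SE, limma adjusted p = 0.0155). Hspa5 kept its call in 8, Pdia6 in 6, Ddit3 in 3 and Ero1b in 7 of the 8 leave-one-out fits. Without stabilized replicate 1 the list had 1 rise and 0 falls, without knockout replicate 3 it had 1 rise, and without knockout replicate 2 it had 2 falls. Ern2, the stress sensor particular to mucous epithelia, differed by -0.20 ± 0.07 (SE, adjusted p = 0.095) and Creb3l1, a membrane-bound transcription factor of secretory cells, by 0.18 ± 0.08 (SE, adjusted p = 0.18).

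In the list for granule docking and release, which also held the chaperone gene Hsp90b1, the called genes rose. Among 29 measured genes 6 rose and 0 fell, while 23 missed the threshold, with a median of 0.10 and a share called higher of 4.65% among all genes. Rab27b and Rab27a, small GTPases of secretory granules, rose by 0.50 ± 0.10 and 0.25 ± 0.07 (SE). The membrane fusion proteins Snap23 and Vamp7 rose by 0.31 ± 0.06 and 0.45 ± 0.10, Marcks, which links granules to the cytoskeleton, by 0.37 ± 0.09, and the chaperone gene Hsp90b1 by 0.22 ± 0.06 (SE). Snap23 and Rab27b kept their calls in 8 of 8 leave-one-out fits, Vamp7 in 6, Marcks in 4, Rab27a in 3 and Hsp90b1 in 1. The list had 4 called members with Xist as a covariate, 2 with all probe sets tested together, 2 without stabilized replicate 1, 3 without stabilized replicate 2 and 3 without knockout replicate 3. Many cell types of the lung use these genes.

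Among upstream regulators and signals of mucous differentiation, 4 of 43 rose, 1 fell and 38 did not pass, with a median of -0.01 that turned to 0.03 after arrays were centred on their medians. Over all genes 4.65% were called higher and 4.96% lower. Il33, an alarmin of alveolar type 2 cells in mouse lung that activates type 2 innate lymphoid cells, was 9.81 ± 0.09 in stabilized lungs and 8.65 ± 0.17 in knockout lungs (SD, n = 4 each), a rise of 1.16 ± 0.09 (SE, adjusted p = 6.04e-06). Il13, the cytokine that induces Muc5ac in allergic airways, differed by -0.01 ± 0.11 (SE, adjusted p = 0.98), and Stat6, which transmits its signal, by -0.08 ± 0.07 (SE, adjusted p = 0.51). Il13 was dim, at 5.21 to 5.76 in knockout lungs and below the array medians there, so its missing call says little. Foxa2 and Nkx2-1, which restrain mucous differentiation in mouse airways, differed by 0.06 ± 0.06 (adjusted p = 0.62) and 0.10 ± 0.06 (SE, adjusted p = 0.38). The Notch effector gene Hey1 rose by 0.56 ± 0.11 and the receptor gene Notch2 fell by 0.37 ± 0.06 (SE). The growth factor receptor gene Egfr and the shedding protease gene Adam17 rose by 0.28 ± 0.07 and 0.30 ± 0.08 (SE), calls kept in 2 and 3 of the 8 leave-one-out fits. The number that rose was 2 after repeated quantile normalization, with all probe sets tested together, and without knockout replicate 1 or knockout replicate 3. The number that fell was 2 with Xist as a covariate, after repeated quantile normalization, without the dimmest genes, and without knockout replicate 3 or knockout replicate 4.

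**Figure D3:**
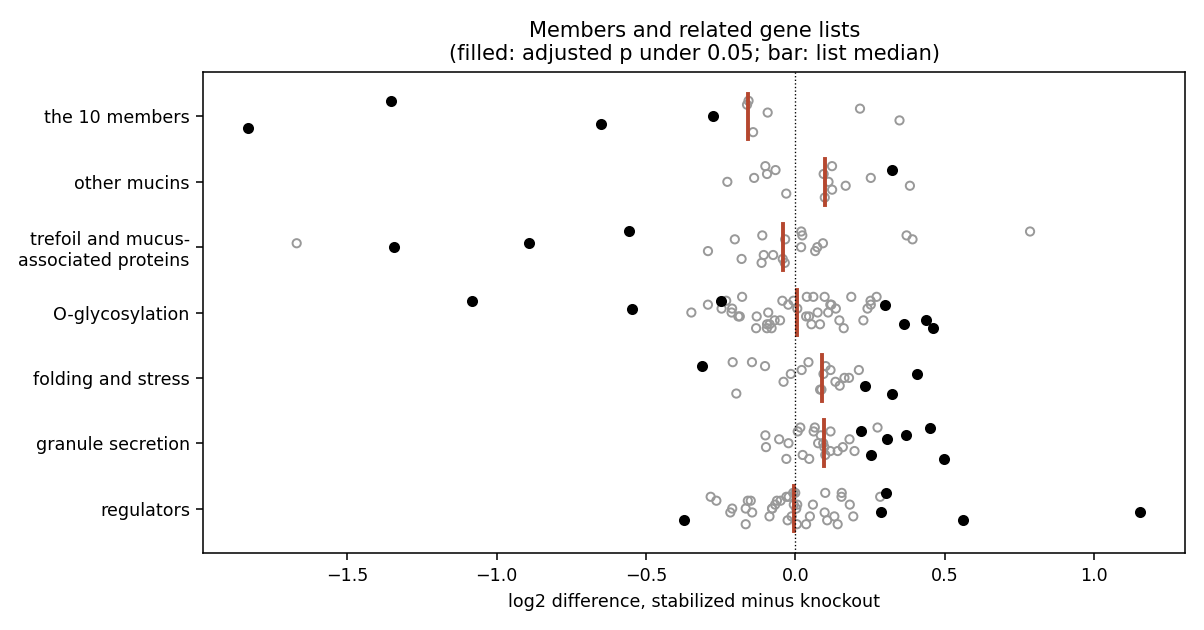
Log2 difference, stabilized minus knockout (x axis), of the 10 genes and of every measured gene in 6 related lists (rows). Each point is 1 gene, filled points passed an adjusted p under 0.05, and the vertical bar is the list median. Muc5b and Tff2 lie apart from most points, and the medians of the related lists lie between -0.04 and 0.10.

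Markers of other cell types moved in the same arrays. For club cells, the secretory cells that also make Muc5b in mouse bronchioles, 10 of 11 markers fell, and the mean log2 level of the list was 8.65 to 8.77 in stabilized and 9.39 to 9.52 in knockout lungs. For ciliated cells 11 of 13 fell, at a mean of 5.65 to 5.85 in stabilized and 6.45 to 6.63 in knockout lungs. For B cells 6 of 7 fell, at 5.23 to 5.48 in stabilized and 6.21 to 6.64 in knockout lungs, and for T and NK cells 9 of 9 fell, at 6.09 to 6.50 in stabilized and 7.18 to 7.99 in knockout lungs. The share called lower over all genes was 4.96%. None of these 4 list means overlapped between the groups. Each gene has a signal on an array, so no defining marker was at 0.

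The signal of Muc5b fell further than the means of the club and ciliated markers. Ratios were formed only for members already called lower, against the marker lists that fell. Their p-values are therefore a description and give no separate support. The log2 ratio of Muc5b to the club marker mean was 1.08 lower in stabilized lungs, and its ratio to the ciliated marker mean was 1.03 lower (two-sided exact permutation p = 0.0286 for each, adjusted p = 0.0419 over 22 ratios). The ratio of Muc5b to the B cell marker mean was 0.72 lower (exact permutation p = 0.0286, adjusted p = 0.0419), while its ratio to the T and NK cell marker mean, 0.50 lower, did not pass (exact permutation p = 0.114, adjusted p = 0.140). Tff2 fell further than the means of the club and ciliated markers as well, by 0.60 and 0.55 on the log2 scale (two-sided exact permutation p = 0.0286 for each, adjusted p = 0.0419). Its ratio to the T and NK cell marker mean was -0.66 ± 0.15 in stabilized lungs and -0.64 ± 0.14 in knockout lungs (SD, n = 4 each, exact permutation p = 0.86), a difference of -0.02. Muc5ac moved about as far as the club mean, the ratio differing by 0.10 (exact permutation p = 0.63), and Muc20 fell less than it, the ratio differing by 0.48 (exact permutation p = 0.0286, adjusted p = 0.0419). Muc5ac and Muc20 lay below the array median in 8 of 8 arrays, where background can compress differences. In stabilized lungs Tff2 and the means of the ciliated and B cell markers also lay below the array median. All these ratios therefore describe signals only. The part that each cell type had in these differences was not tested.

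Single club markers spanned a wide range around the mucins. Scgb3a1 fell further than Muc5b and Tff2, and Scgb3a2 further than Tff2, so the ratios above hold for list means only. The secretoglobin genes Scgb3a1 and Scgb3a2 differed by -1.88 ± 0.27 and -1.70 ± 0.09 (SE), and Scgb1a1, the main club cell secretory protein, by -0.51 ± 0.08 (SE, limma adjusted p = 0.00137). Foxj1, the transcription factor of motile ciliogenesis, differed by -0.62 ± 0.08 (SE, adjusted p = 0.000383).

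Lists for tissues that could be taken along with the lung, and for basal cells, showed fewer calls than the club, ciliated and lymphocyte lists. Over all genes 9.62% were called in either direction. Of 15 cartilage markers, Chad (chondroadherin) fell by 1.66 ± 0.13 (SE) and 14 did not pass, with Col2a1, the main cartilage collagen, at -0.05 ± 0.08 (SE, adjusted p = 0.77). The mean cartilage level was 5.42 to 5.68 in stabilized and 5.68 to 5.79 in knockout lungs. Of 12 submucosal gland markers 1, Ltf, fell, and the list mean was 4.91 to 5.13 in stabilized and 5.10 to 5.14 in knockout lungs. Of 13 oesophagus and stomach markers 0 passed. Of 10 basal cell markers Snai2 rose by 0.37 ± 0.08 and Aqp3 fell by 0.39 ± 0.10 (SE), the call of Aqp3 holding in 4 of the 8 leave-one-out fits, and Krt5 differed by 0.15 ± 0.08 (SE, adjusted p = 0.27).

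**Figure D4:**
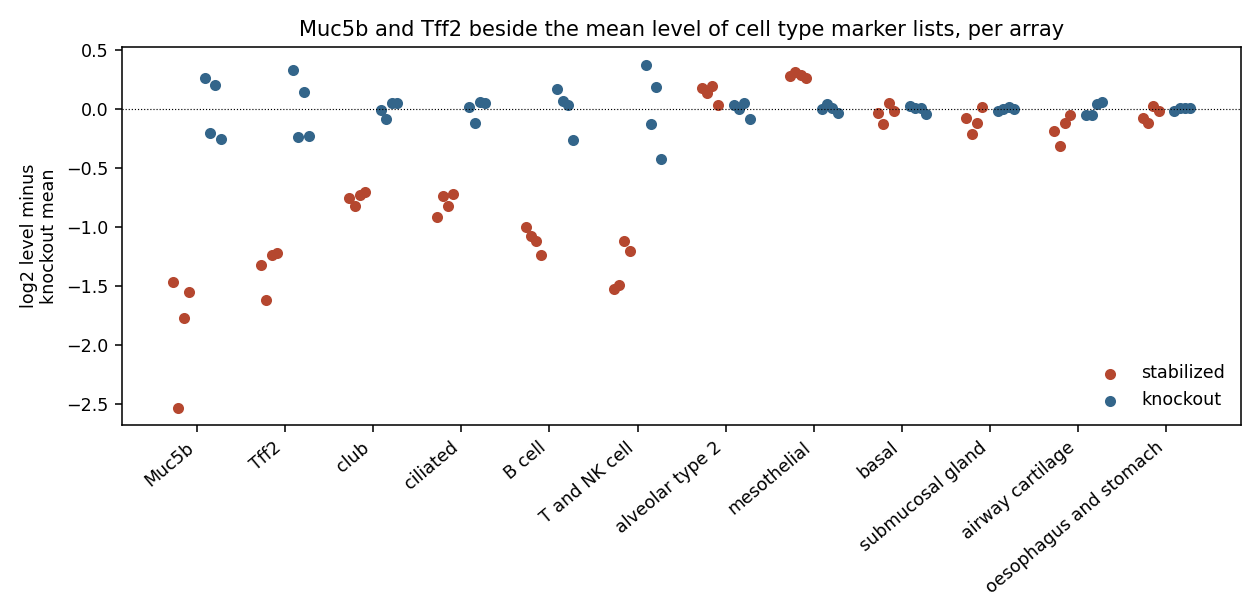
Log2 level of Muc5b and Tff2 and mean log2 level of 10 cell type marker lists in each array, minus the mean of the 4 knockout arrays (y axis), with stabilized lungs in red to the left of knockout lungs in blue. Points are single arrays. Muc5b, Tff2 and the club, ciliated, B cell and T and NK cell lists are lower in all stabilized arrays, the mesothelial list is higher, and the gland, basal and stomach lists overlap between the groups.

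The genes whose pattern over the 8 arrays lay nearest to Muc5b were Scgb3a1, Chad, Spib, Ikzf3 and Tff2, in that order. Nearness was the root mean square distance between log2 values centred on each gene's mean, and it was 0.20 for Scgb3a1, 0.23 for Chad, 0.26 for Spib, 0.27 for Ikzf3 and 0.31 for Tff2. Scgb3a1, a secretoglobin, shared with Muc5b the low value of stabilized replicate 2, at 6.26 against 7.50, 6.78 and 7.64 in the other stabilized lungs. The genes nearest to Tff2 were Il7r at 0.13, Spib at 0.13, Gabra3 at 0.14, Cd79b at 0.16 and Bank1 at 0.17. Il7r encodes the interleukin-7 receptor of lymphocytes, Spib and Bank1 a transcription factor and an adaptor of B cells, Cd79b a chain of the B cell receptor and Gabra3 a subunit of the GABA receptor. Genes that differ between the groups by a similar amount are near by construction, so these distances are a description over 8 arrays.

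**Figure D5:**
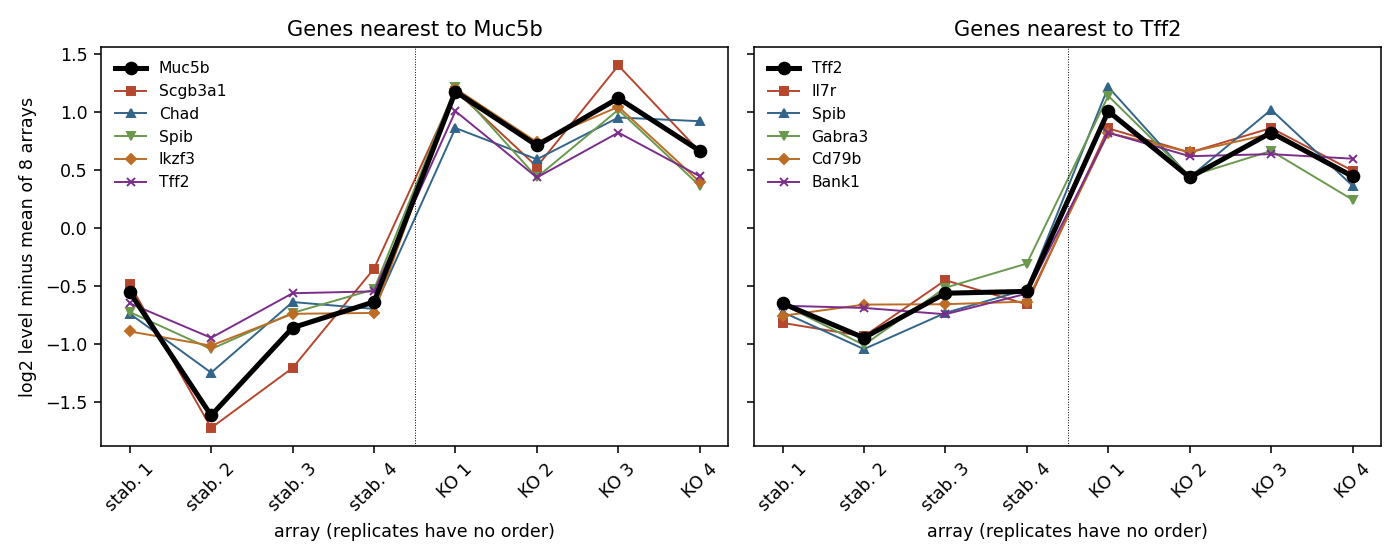
Log2 level minus the gene's mean over 8 arrays (y axis) for Muc5b (left) and Tff2 (right) in black and the 5 nearest genes of each in colour, with stabilized arrays left of knockout arrays (x axis, no order within a group). The nearest genes lie within a root mean square distance of 0.31 of Muc5b and 0.17 of Tff2.

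The members were also set against the Xist pattern of the arrays. In arrays with high Xist the mean Muc5b level was 0.64 higher among stabilized and 0.46 higher among knockout lungs than in the other arrays of the same group, and that of Tff2 was 0.16 and 0.47 higher, each mean being over 2 arrays. The Xist term did not pass for any member (limma adjusted p = 1.00 for each, unadjusted p = 0.00186 for Muc5b and 0.0109 for Tff2). The group difference of Muc5b was -1.74 between arrays with high Xist and -1.92 between the others, and that of Tff2 was -1.51 and -1.19. With Xist as a covariate the 4 lower genes kept their calls.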

How the data were processed

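Total RNA of lung was extracted on spin columns and converted to biotinylated cRNA, per the labels' protocols. The deposited values are log2 expression, 1 per probe set and array, made by the authors with RMA and the affy package, per the submitters' processing notes. No versions or probe genome build are given in the sources used here. RMA's quantile step hides changes of total RNA per cell and compresses dim probe sets. Arrays carry no read depth, and their number, 4 per group, limits the precision. Array medians were 5.97 to 6.03.

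Of 34760 probe sets, 21640 had 1 gene symbol, 1321 several and 11799 none in the platform annotation. Each of 19937 genes was read from the probe set brightest on average over 8 arrays. The comparison was fitted with limma 3.58.1 in R 4.3.3 (lmFit, eBayes with a constant prior, 12.2 total degrees of freedom) on all genes, with Benjamini-Hochberg adjustment at 0.05 and no filter. Named genes were the members, up to 6 called genes per related list, up to 3 per marker list, the nearest 5 to Muc5b and to Tff2, and a few fixed names. Genomic neighbours were added after values were seen. Members and lists were chosen with earlier results of these data known. Ratios were tested by exact permutation over the 70 splits of 8 arrays. They were formed only for members called lower, against each other and against the club, ciliated, B cell and T and NK cell lists. In simulated data over 19937 genes for this comparison, the fit called 82% of 100 genes shifted by 0.5 log2 units, 100% of 100 shifted by 1, and 15 that were not shifted. The main fit did not pair arrays by replicate number, since the labels state no pairing. Of the 4 same-numbered pairs, 0 had deviations correlated above 0.1, which is too few pairs to exclude a pairing. Protein sequences were not used here.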

Additional observations from a re-analysis of the deposited data

Results flagged for a closer look

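Among 152 sets of 4 arrays (76 named genes in 2 groups), 9 held 1 array far from the other 3 by Dixon's criterion, and chance gives about 1 in 20. None was in the 10 members. In knockout lungs, Cd34 was 10.54 in replicate 4 against 10.45 to 10.46 in the others, Hsp90b1 was 10.96 in replicate 4 against 10.83 to 10.84, Ero1b was 7.16 in replicate 1 against 6.96 to 6.99, Rab27b was 6.57 in replicate 2 against 6.85 to 6.88, Msln was 8.08 in replicate 1 against 8.29 to 8.30, and Il13 was 5.21 in replicate 1 against 5.67 to 5.76. In stabilized lungs, Chad was 5.76 in replicate 2 against 6.27 to 6.36, Cd79a was 5.07 in replicate 4 against 5.48 to 5.54, and Klrd1 was 4.60 in replicate 1 against 4.81 to 4.84.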

How the results depend on the processing

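Muc5b and Tff2 were lower and called in all 16 alternative fits, with limma adjusted p up to 0.00315 and 0.00138. Muc5ac lost its call in 1 and Muc20 in 7 of the 16. The number of members called higher was 2 with arrays centred on their medians, 2 with a trended robust prior, 1 with Xist as a covariate and 1 with the replicate block, and 0 to 1 with 1 array left out. The number called lower was 2 with all probe sets tested together, and 3 to 4 with 1 array left out. Testing all probe sets together, which adjusts over more features, gave 8 related-list genes higher, 456 genes higher and 608 lower. With 1 array left out, 8 to 19 related-list genes were higher, 503 to 882 genes were higher and 713 to 957 lower. After centring, 61.2% of called genes were higher, against 48.4% without it. Some differences near 0 changed sign. Centring adds the same constant to every difference, and the median over all genes moved from -0.01 to 0.03. The cause of sign changes under other settings was not tested. After centring, Muc2 was at 0.0017 and Il13 at 0.025. After repeated quantile normalization, Muc2 was at 0.0041, Il13 at 0.033 and Tff3 at 0.00095. With 1 array left out, Muc2 ranged between -0.093 and 0.037, Il13 between -0.13 and 0.049 and Sftpc between -0.025 and 0.072. The deviations of same-numbered arrays correlated at -0.01 to 0.08, and 1 of 4 stabilized arrays correlated best with its own number. These values showed no pairing by number, but 4 pairs are too few to exclude it. With the replicate block 866 genes were higher and 962 lower, and Clca1 passed at an adjusted p of 0.0137. Agr2, Muc16 and Foxa3 were not tested in the fit that dropped the dimmest genes.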

Other observations

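Bpifb1, a secreted BPI-fold protein of airway mucous cells chosen after its values were seen, did not pass the test. It was at 10.12, 9.49, 9.89 and 10.23 in stabilized replicates 1 to 4, against 9.60, 8.72, 9.62 and 8.63 in knockout replicates 1 to 4. The difference of 0.79 ± 0.23 (SE, n = 4 per group) had a limma adjusted p of 0.0501, and stabilized replicate 2 lay within the range of the knockout lungs. Among the 4 protein-coding genes on either side of Tff2, also looked at after values were seen, Glp1r, the receptor of glucagon-like peptide 1, differed by -1.48 ± 0.09 (SE, limma adjusted p = 2.00e-06), the ciliary gene Rsph1 by -0.71 ± 0.08 (SE) and Ubash3a, a regulator of T cell signalling, by -0.37 ± 0.08 (SE). The other neighbours, Umodl1, Abcg1, Tff3, Tff1 and Tmprss3, were not called. Over all genes 4.96% were called lower.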
